A study of Rattus norvegicus with 40 samples.

Results

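The effect of hypoxic preconditioning on gene expression in the rat cerebral cortex was compared between sample numbers 6 to 10 and sample numbers 11 to 15. The comparison used 20 of the 40 arrays of the series, which fall into 4 groups of 5: PC numbers 6 to 10, Sham numbers 6 to 10, PC numbers 11 to 15 and Sham numbers 11 to 15. PC is the labels' short name for hypoxic preconditioning, and Sham arrays are labelled as normoxic. Each sample is total RNA of whole cortex tissue, measured on a 1-colour Affymetrix expression array. Strain, age, oxygen level and length of exposure are not stated in the labels. The labels do not say what a run of numbers stands for, so the runs are compared as numbered and the words "ended" and "reversed" below carry no statement about time. Whether each sample is an animal of its own is not stated, so the p-values reflect the scatter of these samples alone, part of which may be technical.

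For every probe set, the PC minus Sham difference of the log2 intensity was taken in each run, and the effect in numbers 11 to 15 was subtracted from the effect in numbers 6 to 10. This is called the difference of effects, and a positive value means that the PC arrays stood further above the Sham arrays in numbers 6 to 10. Of 31042 probe sets, the 18625 that passed a filter on low values were members of the comparison, and 14273 of them name 1 gene, which gives 10304 genes. A result is called where the adjusted p of the limma fit was under 0.05. The number of arrays limits the precision: in data simulated with the real spread, this test recovered 29% of 200 differences of 0.5 and 81.5% of 200 differences of 1 on the log2 scale.

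Low oxygen stabilises the HIF transcription factors, which bind a short DNA core near their target genes and raise glucose uptake, glycolysis and the vessel growth factor VEGF. Vessels that are being remodelled release angiopoietin 2, which competes with angiopoietin 1 at the receptor Tek (also called Tie2), while apelin marks growing endothelial tips. Stress also raises glucocorticoid targets and immediate early genes, and injured or stressed astrocytes make more of the filament protein Gfap.

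The arrays were alike in RNA quality, with 3'/5' signal ratios of the actin and GAPDH controls of 1.38 to 1.76 and 0.892 to 1.06. One array stood apart: PC 6 had a median log2 value of 5.53, against 5.72 to 5.81 on the other 19, and a position of 34.3 on the second principal component, against -12.7 to 10.8. Sex transcripts marked 2 of 5 arrays as male in PC and in Sham numbers 6 to 10, and 3 of 5 in PC and in Sham numbers 11 to 15. The PC and Sham array of each number were marked alike, which is a sign of pairing that the labels do not state. The tissue label was borne out by Snap25, a neuronal gene at 3283 to 5369 intensity units, by Slc17a7, a marker of cortical excitatory neurons at 351.9 to 670.2, and by Aqp4, an astrocyte channel at 1330 to 2136. Markers of neighbouring tissue were not at the floor: Drd2 of the striatum had 43.5 to 85.89 intensity units. Ttr, the choroid plexus marker, had 62.4 units on Sham 9 and at least 2749 on the other 19 arrays. No marker list separated PC from Sham arrays within a run by its mean level. For example, the mean log2 level of 22 endothelial and mural markers was 6.68 to 6.88 in PC 6 to 10, 6.8 to 6.85 in Sham 6 to 10, 6.81 to 6.99 in PC 11 to 15 and 6.79 to 6.89 in Sham 11 to 15. In bulk tissue, fewer cells of a type and less RNA per cell cannot be told apart.

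The effect of preconditioning differed between the runs in 52 of 18625 probe sets (0.279%) by limma's test, and 1816 had an unadjusted p under 0.05. The difference was higher in 35 (0.188%) and lower in 17 (0.0913%), and the 39 that name a single gene belong to 36 genes. With each array centred on its median, 74 were higher and 9 lower. Within numbers 6 to 10 the effect was called in 413 probe sets (2.22%), 204 higher (1.1%) and 209 lower (1.12%), a split of 409 and 81 with median centring. Within numbers 11 to 15 it was called in 13 (0.0698%), 9 higher (0.0483%) and 4 lower (0.0215%), and 1835 had an unadjusted p under 0.05. With median centring, 6 were higher and 5 lower. A call in one run and none in the other is not itself a difference: of the 413 probe sets called in numbers 6 to 10, the difference of effects was called in 37. The main fit does not pair the arrays by number. With the sample number as a block, 71 differences, 677 effects in numbers 6 to 10 and 34 in numbers 11 to 15 were called. Single arrays moved the counts of the main fit by over 1.5 times. The difference of effects was called in 32 probe sets without PC 11, 33 without Sham 8 and 85 without PC 8. The effect in numbers 6 to 10 was called in 219 without PC 6, 236 without Sham 7 and 217 without Sham 8, and that in numbers 11 to 15 in 8 without PC 11, 3 without PC 12, 20 without PC 13, 7 without Sham 11, 7 without Sham 13 and 5 without Sham 15.

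Across all probe sets, the effects in the 2 runs had a Pearson correlation of 0.173, given as a description across probe sets, which are not independent. The runs share no arrays, though they share the estimate of the spread. The sign was the same in 55.8% of all probe sets and in 60.8% of the 413 called in numbers 6 to 10. Among those 413, the median size of the effect was 0.43 in numbers 6 to 10 and 0.11 in numbers 11 to 15 on the log2 scale, where choosing them by their call makes the value in numbers 6 to 10 larger.

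**Figure D1:**
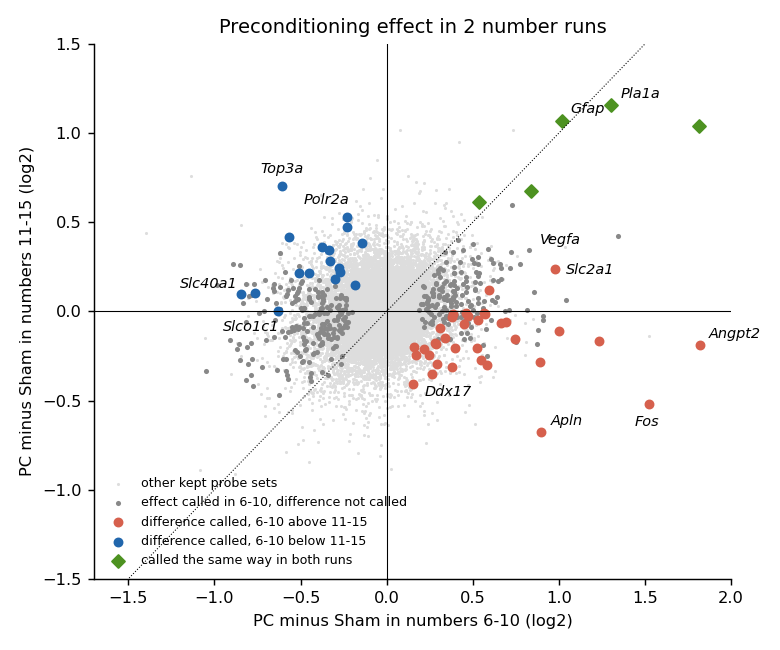
PC minus Sham on the log2 scale in numbers 6 to 10 (horizontal axis) against the same in numbers 11 to 15 (vertical axis), 1 point per kept probe set, with the diagonal of equal effects dotted. The 35 orange and 17 blue points are the called differences of effects, most of them near or beyond the line of no effect in numbers 11 to 15, while the 5 green diamonds were called higher in both runs.

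The called differences were sorted by the calls of each run. An effect is said to have ended where the difference and the effect in numbers 6 to 10 were called and the effect in numbers 11 to 15 was not. That held for 36 probe sets (0.193%) of 29 genes, of which 26 probe sets were higher in PC than in Sham arrays of numbers 6 to 10 and 10 were lower, a split of 62 and 6 with median centring. In 34 of the 36, the estimate in numbers 11 to 15 had the opposite sign, and 14 also met the definition of reversal given further on. Choosing probe sets by a called difference favours opposite signs, so the 34 are no separate evidence. Over all probe sets the sign was the same in 55.8%. Only 1 probe set (0.00537%), that of Polr2a, was called in numbers 11 to 15 but not in numbers 6 to 10 with the difference called. Without PC 8, 69 probe sets met the definition of an ended effect. The missing call in numbers 11 to 15 does not show that an effect was absent there.

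The largest ended effects were those of Fos and Angpt2. Fos, an immediate early transcription factor, had log2 values of 7.27, 6.90, 6.39, 6.95 and 8.32 in PC 6 to 10, against 5.93, 5.53, 5.14, 5.18 and 6.44 in Sham 6 to 10. PC 11 to 15 had 4.97, 5.66, 4.89, 4.76 and 4.76, against 5.88, 5.64, 5.47, 5.06 and 5.57 in Sham 11 to 15. The lowest PC value of numbers 6 to 10 lay just under the highest Sham value, and in numbers 11 to 15 the PC arrays lay mostly under the Sham arrays, with overlap. The effect of 1.52 ± 0.26 (SE, n = 5 per group) in numbers 6 to 10, a 2.87-fold higher level, stood against -0.52 ± 0.26 in numbers 11 to 15, and the difference of effects was 2.04 ± 0.37 (limma adjusted p = 0.00252). The signal of Fos was low on some arrays, down to 27.0 intensity units on PC 14. Under the 12 alternative settings that kept this probe set, the difference ran from 1.38 to 2.14 and was called in each. Of 25 measured immediate early genes, 1, Fos, had a called difference, against 0.279% of all probe sets. Egr1, a zinc finger factor of the same group, rose by 0.91 in numbers 6 to 10 and stood at -0.02 in numbers 11 to 15, and its difference of 0.93 missed the threshold (limma adjusted p = 0.0532). It passed under 4 of 13 alternative settings and had an adjusted p of up to 0.155 in the others. One of the 4 was the sample number as a block, with a limma adjusted p of 3.41e-05.

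Angpt2, angiopoietin 2, had 7.01, 6.82, 6.96, 6.75 and 7.09 in PC 6 to 10, against 5.58, 4.51, 5.16, 5.08 and 5.20 in Sham 6 to 10. The other run gave 5.65, 4.99, 5.11, 5.25 and 4.91 in PC 11 to 15, against 5.60, 5.22, 5.10, 5.83 and 5.11 in Sham 11 to 15. All PC values stood above all Sham values in numbers 6 to 10, and the groups overlapped throughout in numbers 11 to 15. The effects were 1.82 ± 0.18, a 3.53-fold higher level, and -0.19 ± 0.18, and their difference was 2.01 ± 0.26 (limma adjusted p = 1.48e-05). Angpt2 was dim in Sham arrays, and with 32 added to the intensity before the log its effect was 1.20 in numbers 6 to 10 and the difference 1.30, both still called. Over all probe sets, PC arrays lay wholly above Sham arrays in 1.65% and wholly below in 2.01% in numbers 6 to 10. In numbers 11 to 15 these shares were 1.15% and 1.06%. Of the 52 called differences, 65.4% were separate in numbers 6 to 10, which their choice favours, so separation is given as description.

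Tek, the angiopoietin receptor of endothelial cells, moved the other way. It had 6.09, 6.56, 6.05, 6.38 and 6.45 in PC 6 to 10, against 6.93, 6.74, 6.79, 6.87 and 6.74 in Sham 6 to 10. In numbers 11 to 15 the values were 6.97, 6.85, 7.10, 7.18 and 7.16 in PC, against 6.76, 6.77, 6.96, 6.88 and 6.80 in Sham. All PC arrays were below all Sham arrays in numbers 6 to 10, whereas in numbers 11 to 15 the groups overlapped with PC the higher on average. The difference of effects was -0.73 ± 0.16 (limma adjusted p = 0.0209), from -0.51 ± 0.11 in numbers 6 to 10 and 0.22 ± 0.11 in numbers 11 to 15.

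The effects of Plat, Kdr and Vcl, and of 1 probe set of Flt1, also ended. Plat, the tissue plasminogen activator, had 8.79, 8.92, 8.74, 8.90 and 9.20 in PC 6 to 10, against 8.38, 8.22, 8.07, 8.24 and 8.15 in Sham 6 to 10. PC 11 to 15 had 7.84, 8.18, 8.13, 8.42 and 7.94, against 8.21, 8.17, 8.24, 8.11 and 8.09 in Sham 11 to 15. The groups were separate in numbers 6 to 10 and interleaved in numbers 11 to 15, with a difference of effects of 0.76 ± 0.13 (limma adjusted p = 0.000873). Kdr, the main signalling receptor for VEGF, averaged 8.46 ± 0.12 in PC and 7.93 ± 0.15 in Sham 6 to 10, and 7.94 ± 0.14 in PC and 7.99 ± 0.08 in Sham 11 to 15 (SD, n = 5 each). Its difference of effects was 0.58 (limma adjusted p = 0.0152). The second VEGF receptor, Flt1, was split between its probe sets: the brighter one, which stands for the gene, had a difference of 0.87 that was not called (adjusted p = 0.325), and the dimmer one had 1.40 (limma adjusted p = 0.0209). Vcl, which links adhesion sites to actin, rose by 0.66 in numbers 6 to 10 and stood at -0.07 in numbers 11 to 15, with a difference of 0.73 that was called. Its other 2 kept probe sets had differences of 0.57 and 0.45 that were not.

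Slc2a1, which takes glucose from blood into brain, was the gene with the smallest p in numbers 6 to 10. It had 8.80, 8.80, 8.57, 8.83 and 9.06 in PC 6 to 10, against 7.92, 7.87, 7.88, 7.70 and 7.78 in Sham 6 to 10. The other run gave 7.90, 8.04, 7.84, 7.94 and 7.96 in PC 11 to 15, against 7.67, 7.75, 7.64, 7.85 and 7.59 in Sham 11 to 15. The PC arrays were all above the Sham arrays in numbers 6 to 10, and in numbers 11 to 15 they were higher on average with values of PC 13 and Sham 14 crossing. The effect was 0.98 ± 0.08 in numbers 6 to 10 and 0.24 ± 0.08 in numbers 11 to 15, where it had an unadjusted p of 0.00442 and a limma adjusted p of 0.288. Its difference of 0.74 ± 0.11 was called (limma adjusted p = 0.000259), so the effect was smaller, and its sign was the same.

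Slc40a1, the iron exporter ferroportin, had 6.17, 6.11, 6.61, 6.14 and 5.89 in PC 6 to 10, against 7.14, 6.88, 6.83, 6.74 and 7.14 in Sham 6 to 10. Numbers 11 to 15 gave 6.98, 7.20, 7.19, 7.09 and 6.86 in PC, against 6.97, 6.77, 7.12, 6.92 and 7.02 in Sham. The PC arrays were all lower in numbers 6 to 10 and intermingled with the Sham arrays in numbers 11 to 15. The difference of effects was -0.87 ± 0.17 (limma adjusted p = 0.0106), and a second, dimmer probe set gave -0.76, which was not called (adjusted p = 0.0704).

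Slco1c1, which carries thyroxine across the vessels of the brain, had 8.92, 8.84, 8.90, 8.93 and 8.92 in PC 6 to 10, against 9.61, 9.50, 9.45, 9.49 and 9.62 in Sham 6 to 10. In numbers 11 to 15 it had 9.45, 9.37, 9.55, 9.58 and 9.42 in PC, against 9.42, 9.48, 9.42, 9.67 and 9.37 in Sham. The PC arrays lay wholly below the Sham arrays in numbers 6 to 10, and in numbers 11 to 15 they interleaved with an effect of 0.0013. The difference of effects was -0.64 ± 0.09 (limma adjusted p = 6.44e-05).

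**Figure D2:**
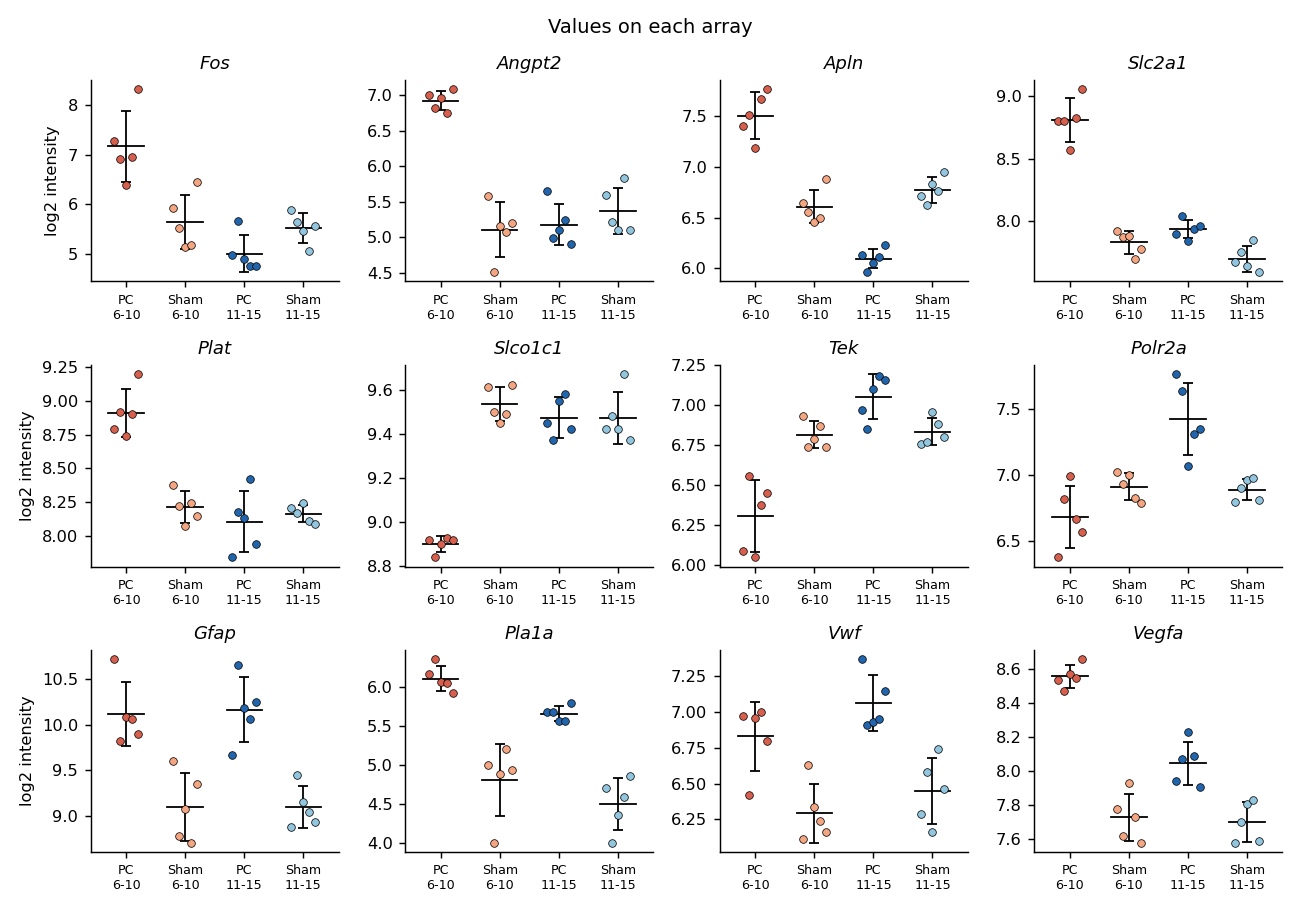
Log2 intensity of 12 genes on each of the 20 arrays, in the order PC and Sham numbers 6 to 10, then PC and Sham numbers 11 to 15, with the mean as a bar and the SD as whiskers (n = 5 each) and a separate vertical scale per gene. In Fos, Angpt2, Slc2a1, Plat, Slco1c1 and Tek the PC 6 to 10 column departs from the rest, in Apln both PC columns leave the Sham level in opposite directions, and in Gfap, Pla1a and Vwf both PC columns are higher.

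The differences of the other ended genes that were higher in numbers 6 to 10 ran from 0.40 to 1.17. Ak4, a mitochondrial adenylate kinase, averaged 7.07 ± 0.11 in PC and 6.18 ± 0.13 in Sham 6 to 10, and 6.08 ± 0.20 in PC and 6.36 ± 0.20 in Sham 11 to 15, a difference of effects of 1.17 (limma adjusted p = 0.000704). Errfi1, a feedback inhibitor of EGF receptor signalling, had a difference of 0.73 (limma adjusted p = 0.000826), and Jmjd6, a nuclear hydroxylase, one of 0.82 (limma adjusted p = 0.00846). Cables1, a cyclin-dependent kinase adaptor, had 0.57, Ddit4, an inhibitor of the growth kinase mTOR, 0.52, Sgk1, a kinase induced by glucocorticoids, 0.50, Narf 0.49 and Higd1a, a mitochondrial protein induced by low oxygen, 0.40. In Narf, the second probe set was called too, at 0.59, whereas that of Higd1a was not, at 0.27. For 2 receptors of phagocytosis the differences were 1.11 in Mertk, a receptor for dying cells (limma adjusted p = 0.0378), and 0.90 in Mrc1, the mannose receptor of macrophages (limma adjusted p = 0.0345). Mrc1 was the 1 called member of 11 measured microglia and macrophage markers, against 0.279% of all probe sets. The median difference of these markers was -0.23. Their mean level was 6.39 to 7.01 in PC 6 to 10 and 6.4 to 6.92 in Sham 6 to 10. In numbers 11 to 15 it was 6.35 to 6.84 in PC and 6.4 to 6.56 in Sham. The calls of Ddit4, Sgk1, Mertk and Mrc1 were lost in 5, 12, 14 and 12 of 20 fits that each left out 1 array, at an adjusted p of up to 0.0626 (PC 10), 0.0844 (PC 10), 0.0879 (Sham 14) and 0.0753 (PC 9). Csf1r, a defining gene of these cells, had 72.93 to 132 intensity units. The part of cell numbers in the Mrc1 result was not tested.

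To account for all 29 ended genes, 4 more that no naming rule covers are given here after their values were seen: Anxa2 had a difference of 0.48, Tns3 0.47, Vldlr 0.41 and Kmt2e 0.40. Besides Tek, Slc40a1 and Slco1c1, 5 ended genes were lower in numbers 6 to 10. They were Haus5, a spindle protein, with a difference of -0.94, Atf7ip, a chromatin factor, with -0.98, Bbs9, a ciliary trafficking protein, with -0.74, Taf6, a subunit of the transcription factor TFIID, with -0.68, and Smim20, a small mitochondrial membrane protein, with -0.48. Both Atf7ip probe sets of higher signal were called, at -0.98 and -0.67, and its 2 dimmer ones were not, at -0.86 and -0.63. In contrast, the second Taf6 probe set had a difference of -0.02 (adjusted p = 0.982), so its probe sets disagree. In the 20 fits without 1 array, the difference of Haus5 was lost in 7 and that of Smim20 in 13, at an adjusted p of up to 0.0653 (Sham 11) and 0.069 (Sham 14), and the effect of Taf6 in numbers 6 to 10 in 15 and that of Bbs9 in 6, at up to 0.146 and 0.099 (PC 6 for both).

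**Figure D3:**
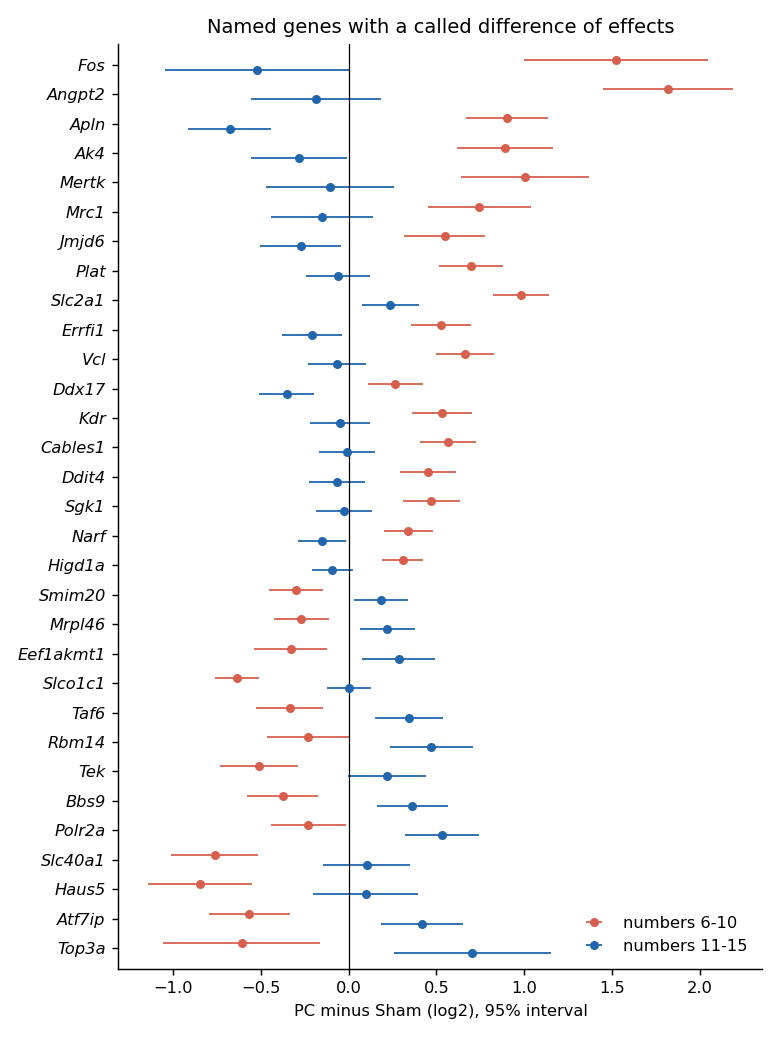
PC minus Sham on the log2 scale with its 95% interval for the 31 named genes whose difference of effects was called, in numbers 6 to 10 (orange, upper point of each pair) and numbers 11 to 15 (blue, lower point). From Fos at the top to Higd1a the orange points lie right of 0, from Smim20 down to Top3a left of it, and the interval in numbers 11 to 15 lies wholly on the opposite side for genes such as Apln, Ddx17, Atf7ip and Polr2a.

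A reversal required a called difference and effects of opposite sign with an unadjusted p under 0.05 in each run. It was met by 27 probe sets (0.145%), 16 higher in numbers 6 to 10 and lower in numbers 11 to 15, and 11 the other way, a split of 34 and 4 with median centring. Those with a single gene gave 6 genes of the first kind, Apln, Ak4, Jmjd6, Errfi1, Ddx17 and Narf, and 8 of the second, Atf7ip, Taf6, Bbs9, Smim20, Mrpl46, Eef1akmt1, Polr2a and Top3a. Since the difference had to be called, the choice favoured opposite signs, which 50 of the 52 called differences had. Apln was the single probe set of the 27 whose effect was called after adjustment in both runs. The count was 16 without Sham 8 and 17 without PC 11, PC 14, Sham 11 or Sham 15.

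Apln encodes apelin, a peptide of endothelial cells that acts on vessel growth and tone. It had 7.40, 7.51, 7.19, 7.67 and 7.77 in PC 6 to 10, against 6.64, 6.56, 6.46, 6.50 and 6.88 in Sham 6 to 10. PC 11 to 15 had 6.13, 5.96, 6.05, 6.11 and 6.23, against 6.71, 6.62, 6.83, 6.76 and 6.95 in Sham 11 to 15. No value overlapped in either run: all PC arrays were above the Sham arrays in numbers 6 to 10 and below them in numbers 11 to 15. The effects were 0.90 ± 0.12, a level 1.87 times that of Sham (limma adjusted p = 3.02e-06), and -0.68 ± 0.12, a level 0.625 times that of Sham (limma adjusted p = 0.00423). Its difference of 1.58 ± 0.16 had the smallest p of all probe sets (limma adjusted p = 8.22e-08). The dimmer Apln probe set had effects of 0.58 and -0.25 and a difference of 0.83 that missed the threshold (adjusted p = 0.0642).

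Polr2a, the large subunit of RNA polymerase II, went the opposite way. It had 6.38, 6.82, 6.99, 6.67 and 6.57 in PC 6 to 10, against 7.02, 6.93, 7.00, 6.83 and 6.79 in Sham 6 to 10. The other run gave 7.76, 7.63, 7.07, 7.31 and 7.35 in PC 11 to 15, against 6.80, 6.90, 6.96, 6.98 and 6.81 in Sham 11 to 15. The groups overlapped in numbers 6 to 10, and all PC values were the higher in numbers 11 to 15. The effect there was 0.53 ± 0.10 (limma adjusted p = 0.0242), against -0.23 ± 0.10 in numbers 6 to 10 (adjusted p = 0.258), with a difference of -0.76 ± 0.15 (limma adjusted p = 0.00846). In 4 of 20 fits that each left out 1 array, the call in numbers 11 to 15 was lost, with an adjusted p of 0.129 without PC 11, 0.13 without PC 12, 0.0786 without Sham 11 and 0.0863 without Sham 15.

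The next named reversal was that of Ddx17, an RNA helicase, which averaged 8.97 ± 0.16 in PC and 8.71 ± 0.14 in Sham 6 to 10, and 8.30 ± 0.15 in PC and 8.65 ± 0.08 in Sham 11 to 15 (SD, n = 5 each). Its PC arrays were all below the Sham arrays in numbers 11 to 15. The difference of effects was 0.62 ± 0.11 (limma adjusted p = 0.00241) in this probe set and 0.69 in the other one, also called. Rbm14, an RNA-binding coactivator whose effect was called in neither run, had a difference of -0.70 (limma adjusted p = 0.0412), with -0.23 in numbers 6 to 10 and 0.47 in numbers 11 to 15. The other genes with a called difference and no call in either run were Ddx17, Mrpl46, Eef1akmt1 and Top3a. Top3a, a DNA topoisomerase, had the most negative of the called differences at -1.31 ± 0.31, which was also close to the threshold (limma adjusted p = 0.0482). It had a lower signal than most, with means of 4.81 ± 0.44 in PC and 5.42 ± 0.35 in Sham 6 to 10, and 5.50 ± 0.30 in PC and 4.79 ± 0.41 in Sham 11 to 15. Of these 5 genes, Ddx17 kept its call in all 20 fits without 1 array, and the others lost it in 10 fits for Mrpl46, 14 for Rbm14, 15 for Top3a and 17 for Eef1akmt1, at an adjusted p of up to 0.0869 (Sham 9), 0.0908 (PC 11), 0.111 (Sham 12) and 0.0969 (PC 9).

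A difference of effects can come from the PC arrays, the Sham arrays or both, and the 2 parts were fitted separately. They use the same arrays as the difference, so they describe it and are no further evidence. For all 52 probe sets the run difference among PC arrays was called too and was larger than that among Sham arrays. None of the 52 was called among Sham arrays, where the lowest limma adjusted p was 0.203 and 6 had an unadjusted p under 0.05. The median size of the run difference over the 52 was 0.58 among PC arrays and 0.08 among Sham arrays, against 0.13 and 0.08 over all probe sets. Over all probe sets, numbers 6 to 10 and 11 to 15 differed in 1660 (8.91%) among PC arrays, 704 higher (3.78%) and 956 lower (5.13%), a split of 1170 and 383 with median centring, and in 54 (0.29%) among Sham arrays. The first count was 1027 without PC 11 and 1028 without PC 12, and the second was 12 to 33 in 10 of the 20 fits without 1 array, the lowest without Sham 13.

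Genes called between the runs among Sham arrays often differed among PC arrays as well: of 35 such genes, 16 were called in the same direction in both treatments. Among PC arrays, 346 of all 10304 genes were called higher and 682 lower. Of 21 measured genes of the unfolded protein and amino acid response, 9 were higher in numbers 6 to 10 among Sham arrays, 11 among PC arrays and 8 in both, and none was lower. Over all 10304 genes, 17 were called higher among Sham arrays and 346 among PC arrays. Hspa5, the main chaperone of the endoplasmic reticulum, was 0.94 higher among PC arrays and 1.01 higher among Sham arrays, with a difference of effects of -0.07 (limma adjusted p = 0.929). Sdf2l1, a partner of that chaperone, had 0.75 among PC arrays and 1.21 among Sham arrays, with a difference of -0.46 that was not called. Creld2, an endoplasmic reticulum protein, had 0.58 and 1.25, with a difference of -0.67 (adjusted p = 0.246), and Dnajc3, a cochaperone, 0.34 and 0.82, with a difference of -0.48 (adjusted p = 0.343). The effect of preconditioning was called lower in numbers 6 to 10 for 2 of the 21, Sdf2l1 at -0.55 and Creld2 at -0.58, and for none in numbers 11 to 15. Over all probe sets, 1.12% were called lower in numbers 6 to 10 and 0.0215% in numbers 11 to 15.

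**Figure D4:**
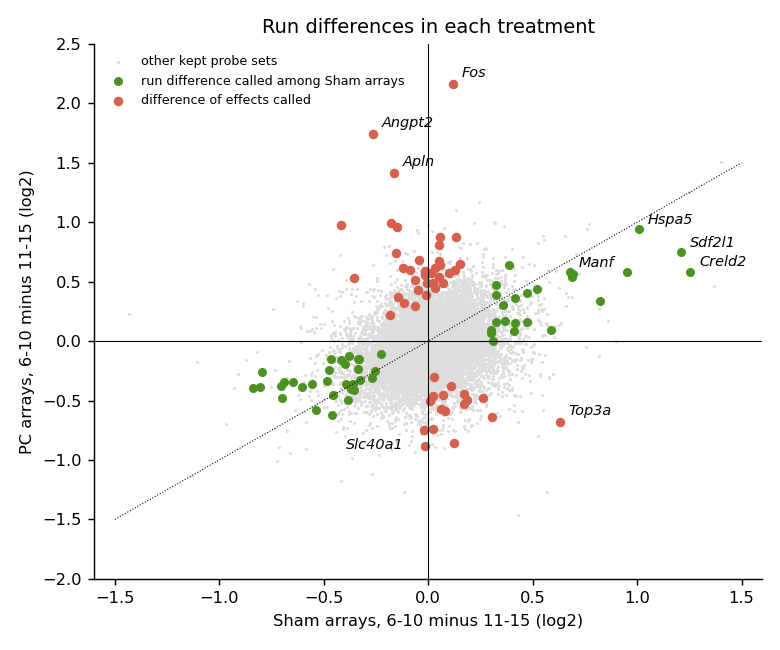
Run difference (numbers 6 to 10 minus 11 to 15, log2) among Sham arrays on the horizontal axis and among PC arrays on the vertical axis, 1 point per kept probe set, with equality dotted. The 52 called differences of effects (orange) spread along the vertical axis, whereas genes called among Sham arrays (green), with Hspa5, Sdf2l1, Creld2 and Manf at the right, lie mostly on the same side of 0 in both treatments.

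Effects that the runs share were sought with the average of the 2 effects, called in 398 probe sets (2.14%), 199 in each direction (1.07%), or 208 higher and 112 lower with median centring. Of these, 223 (1.2%) had no called difference and the same sign with an unadjusted p under 0.05 in each run, or were called the same way in both, and are referred to as shared: 111 were higher and 112 lower. Without PC 11 there were 128 of them and without Sham 13 there were 145, and the average was called in 233 without PC 11, 242 without Sham 13, 243 without Sham 7, 251 without PC 6 and 252 without Sham 8. Those called in both runs in the same direction were 5 (0.0268%), all higher, equal to 1.21% of the calls in numbers 6 to 10 and 38.5% of those in numbers 11 to 15. They were Gfap, Pla1a, Mt2A, Vwf and a probe set with several genes.

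Gfap, the filament protein of astrocytes, had 10.72, 9.82, 10.09, 10.06 and 9.90 in PC 6 to 10, against 9.60, 8.78, 9.08, 8.71 and 9.35 in Sham 6 to 10. In numbers 11 to 15 it had 9.67, 10.66, 10.18, 10.06 and 10.25 in PC, against 8.88, 9.45, 9.16, 9.05 and 8.93 in Sham. All PC arrays stood above all Sham arrays in each run. The effects of 1.02 ± 0.19 and 1.07 ± 0.19 differed by -0.05 (95% interval -0.59 to 0.48). The call in numbers 11 to 15 was lost without PC 12 (adjusted p = 0.0694). With the sample number as a block, its limma adjusted p there was 4.92e-08. Gfap was the only one of 18 measured astrocyte markers called in both runs, and their mean level was 8.98 to 9.44 in PC 6 to 10, 8.9 to 9.24 in Sham 6 to 10, 9.04 to 9.23 in PC 11 to 15 and 8.98 to 9.23 in Sham 11 to 15.

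Pla1a, a phospholipase specific for phosphatidylserine, had 6.17, 6.36, 6.06, 6.05 and 5.92 in PC 6 to 10, against 5.00, 4.00, 4.88, 5.21 and 4.94 in Sham 6 to 10. PC 11 to 15 had 5.68, 5.68, 5.56, 5.57 and 5.80, against 4.70, 4.00, 4.35, 4.58 and 4.86 in Sham 11 to 15. The groups were separate in both runs, and 1 Sham array of each run lay at the floor of 4.00. The effects were 1.30 ± 0.19 and 1.16 ± 0.19, with a difference of 0.15 and an interval of -0.41 to 0.70.

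Vwf, the von Willebrand factor of endothelial cells, had 6.97, 6.42, 6.96, 7.00 and 6.80 in PC 6 to 10, against 6.11, 6.63, 6.34, 6.24 and 6.16 in Sham 6 to 10. The other run gave 7.37, 6.91, 6.93, 6.95 and 7.15 in PC 11 to 15, against 6.29, 6.58, 6.16, 6.74 and 6.46 in Sham 11 to 15. Only PC 7 and Sham 7 crossed in numbers 6 to 10, and no array did in numbers 11 to 15. Its effects were 0.54 ± 0.13 and 0.61 ± 0.13, with a difference of -0.08 (interval -0.44 to 0.29). The call was lost without PC 6 in numbers 6 to 10 (adjusted p = 0.0533) and in 6 of 20 fits in numbers 11 to 15, with an adjusted p of up to 0.158 without PC 11. Mt2A, a metallothionein that binds zinc and copper, had effects of 0.84 ± 0.14 and 0.68 ± 0.14 and a difference of 0.16 (interval -0.24 to 0.56), and its call in numbers 11 to 15 was lost in 7 of 20 such fits, with an adjusted p of up to 0.197 without PC 12.

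Among the shared genes with the largest average effects, several kept the same sign with unequal estimates. Vegfa, the main vessel growth factor, had 8.54, 8.47, 8.57, 8.55 and 8.66 in PC 6 to 10, against 7.78, 7.62, 7.93, 7.73 and 7.58 in Sham 6 to 10. In numbers 11 to 15 it had 7.94, 8.07, 8.23, 8.09 and 7.91 in PC, against 7.58, 7.70, 7.81, 7.83 and 7.59 in Sham. All PC arrays were the higher in each run. The effects were 0.83 ± 0.08 and 0.34 ± 0.08, and the difference of 0.48 ± 0.12 missed the threshold (limma adjusted p = 0.061, 95% interval 0.24 to 0.73), which it passed under 3 of 13 alternative settings. A second, dimmer Vegfa probe set gave effects of 0.66 and 0.24 and a difference of 0.42 that was not called (limma adjusted p = 0.323). Angptl4, an inhibitor of lipoprotein lipase, had effects of 0.95 and 0.42, and Serpinb6b, a serine protease inhibitor, -1.05 and -0.33. Gpnmb, a membrane glycoprotein of phagocytic cells, had 0.73 and 0.59, Hspa1a, the inducible heat shock protein, 0.55 and 0.53, Ldha, lactate dehydrogenase A, 0.53 and 0.26, and Taf15, an RNA-binding factor, -0.68 and -0.48. None of these differences was called. In numbers 11 to 15 alone, neither Vegfa nor any of these genes had a called effect. The 95% interval of the difference left out 0 for Angptl4 (0.17 to 0.89), Serpinb6b (-1.18 to -0.25) and Ldha (0.002 to 0.53). It held 0 for Gpnmb, Hspa1a and Taf15. Hspa1a and Taf15 were called in neither run (limma adjusted p of 0.0975 and 0.0778 in numbers 6 to 10), so for them the shared effect rests on the average. The call of Gpnmb in numbers 6 to 10 was lost in 5 of 20 fits without 1 array, at an adjusted p of up to 0.0956 without Sham 9, and the average effect of Taf15 in 11, at up to 0.0769 without PC 6.

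In numbers 11 to 15, 10 genes were called by the probe set that stands for them, and 4 of these have not been described yet. Prkce, a protein kinase C, had effects of 0.23 in numbers 6 to 10 and 0.45 in numbers 11 to 15. Timp1, an inhibitor of matrix proteases, had 0.34 and 0.61, and Slc38a5, a glutamine transporter of brain vessels, -0.39 and -0.61. Bmper, an extracellular regulator of BMP signalling, had -0.13 and -0.57. For none of the 4 was the difference of effects called, so these data do not show them to be particular to numbers 11 to 15. Each of the 4 calls was lost in 2 to 7 of the 20 fits without 1 array, at the highest adjusted p of 0.0767 for Prkce (without PC 12), 0.197 for Timp1 (PC 12), 0.0706 for Slc38a5 (PC 12) and 0.13 for Bmper (PC 12 or Sham 13). Another 2 genes, Col4a1 at 0.61 and Cacybp at -0.49, were called in numbers 11 to 15 through a probe set other than the brightest.

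The gene lists place these genes in their pathways. Of 37 measured HIF targets and glycolytic enzymes, 15 were called higher and none lower in numbers 6 to 10, against 1.1% and 1.12% of all probe sets. None was called in numbers 11 to 15, where only 0.0698% of all probe sets were called, so that absence is no result about this list. The difference of effects was called higher in 4, Slc2a1, Ak4, Ddit4 and Higd1a, and lower in none, against 0.279% of all probe sets called in either direction. The median effect of the list was 0.31 in numbers 6 to 10 and 0.12 in numbers 11 to 15, and its median difference was 0.22, against medians of -0.03, 0.01 and -0.03 over all 10304 genes. Above 0 lay 34 of 37 effects in numbers 6 to 10 and 25 of 37 in numbers 11 to 15. Besides the genes named so far, P4ha1 and Plod2, which modify collagen, had called effects of 0.61 and 0.62 in numbers 6 to 10, and Kdm3a, a histone demethylase, had 0.51, with 0.12 in numbers 11 to 15 and no called difference. Pdk1, which holds pyruvate out of the mitochondrion, had 0.39 and Ndrg1 0.34 in numbers 6 to 10.

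Of 18 measured glucocorticoid response genes, 9 were called higher and none lower in numbers 6 to 10, and 1, Mt2A, was called higher in numbers 11 to 15, against 1.1% and 0.0483% of all probe sets called higher. The difference was called higher in 3, Errfi1, Ddit4 and Sgk1, against 0.188% of all probe sets. The median effect was 0.44 in numbers 6 to 10 and 0.04 in numbers 11 to 15, against -0.03 and 0.01 over all genes. Per1, a clock gene that glucocorticoids induce, rose by 1.35 in numbers 6 to 10, and Fkbp5, a partner of the glucocorticoid receptor, by 0.53, against -0.01 in numbers 11 to 15, while the difference of 0.53 in Fkbp5 was not called (adjusted p = 0.249). The call of Fkbp5 in numbers 6 to 10 was lost without PC 7 (adjusted p = 0.0649) or Sham 10 (adjusted p = 0.065). Ddit4 is in both this list and the HIF list. Without PC 6, 13 HIF list genes and 6 glucocorticoid genes were called in numbers 6 to 10, and 4 and 2 had a called difference.

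Of 25 measured angiogenesis genes, the difference was called higher in 4, Angpt2, Apln, Plat and Kdr, and lower in 1, Tek, where 0.188% of all probe sets were called higher and 0.0913% lower. The median effect of that list was 0.09 in numbers 6 to 10 and 0.07 in numbers 11 to 15, against -0.03 and 0.01 over all genes. The 22 endothelial and mural markers had 1 called higher, Kdr, and 2 called lower, Tek and Slco1c1, with median effects of -0.03 and 0.02. Plat was also the 1 called among 24 basement membrane and proteolysis genes, and Slc40a1 the 1 called, lower, among 11 iron and metallothionein genes. In lists with no called difference, which were heat shock proteins, the unfolded protein response, cholesterol synthesis, the clock, the cell cycle, oxidative phosphorylation, the Notch pathway, and markers of astrocytes, oligodendrocytes, neurons, neighbouring brain regions and choroid plexus with blood, the median difference lay between -0.05 and 0.14.

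**Figure D5:**
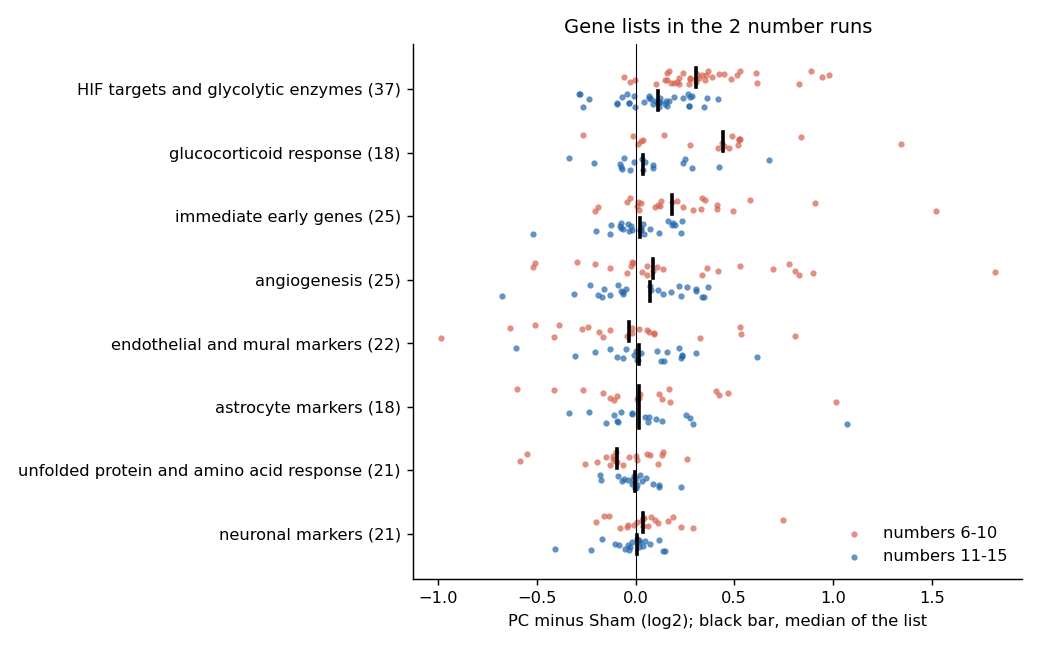
PC minus Sham on the log2 scale of every measured member of 8 gene lists, in numbers 6 to 10 (orange, upper row of each pair) and numbers 11 to 15 (blue, lower row), with the number of members in brackets and the list median as a black bar. The medians of the HIF and glucocorticoid lists are 0.31 and 0.44 in numbers 6 to 10 and 0.12 and 0.04 in numbers 11 to 15.

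HIF binds the cores ACGTG and GCGTG, and the promoters of 4 genes are shown because their effects fell into different classes: Slc2a1 and Ddit4 ended, Ldha was shared and Apln reversed. The RefSeq promoter of each runs from 250 bases before to 50 after the start of the gene on assembly GRCr8, at chr5:138002272-138002571 on the plus strand for Slc2a1, chr20:28436988-28437287 on the minus strand for Ddit4, chr1:106507842-106508141 on the plus strand for Ldha and chrX:132091197-132091496 on the minus strand for Apln. Capitals mark either core on either strand.
Slc2a1: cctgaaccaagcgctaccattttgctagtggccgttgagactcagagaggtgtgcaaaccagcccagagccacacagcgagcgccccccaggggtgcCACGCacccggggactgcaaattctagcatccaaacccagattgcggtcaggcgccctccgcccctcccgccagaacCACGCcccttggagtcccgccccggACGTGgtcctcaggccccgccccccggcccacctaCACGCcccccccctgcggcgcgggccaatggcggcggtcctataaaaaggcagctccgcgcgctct
Ddit4: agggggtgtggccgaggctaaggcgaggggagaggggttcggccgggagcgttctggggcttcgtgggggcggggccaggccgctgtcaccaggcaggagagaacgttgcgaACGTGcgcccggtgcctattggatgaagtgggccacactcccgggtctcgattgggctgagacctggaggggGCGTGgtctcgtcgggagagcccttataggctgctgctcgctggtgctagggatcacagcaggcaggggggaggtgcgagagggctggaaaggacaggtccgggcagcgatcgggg
Ldha: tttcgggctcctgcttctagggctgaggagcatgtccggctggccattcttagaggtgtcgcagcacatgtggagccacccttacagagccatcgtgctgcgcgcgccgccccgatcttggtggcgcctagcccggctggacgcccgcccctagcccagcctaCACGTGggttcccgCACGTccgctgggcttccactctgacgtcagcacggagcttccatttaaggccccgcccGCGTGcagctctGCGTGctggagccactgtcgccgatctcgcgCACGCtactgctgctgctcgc
Apln: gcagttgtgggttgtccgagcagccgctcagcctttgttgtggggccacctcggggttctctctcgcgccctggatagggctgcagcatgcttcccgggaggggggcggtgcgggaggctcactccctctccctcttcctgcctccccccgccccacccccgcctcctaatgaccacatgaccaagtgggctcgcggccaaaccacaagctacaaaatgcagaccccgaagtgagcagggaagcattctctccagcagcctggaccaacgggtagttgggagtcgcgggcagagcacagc
The cores matched at 4 positions in Slc2a1, 2 in Ddit4, 6 in Ldha and 0 in Apln, where CACGTG counts on both strands. At least 1 core was present in 44.6% of 27457 genes in the promoter table and in 64.8% of the 8636 genes measured here that it holds. It was present in 13 of 19 genes with a called difference above 0 (68.4%), in 5 of 11 with one below 0 (45.5%) and in 26 of 30 measured HIF list genes (86.7%). A match describes the letters of this window and is no sign of binding.

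The other 20 arrays of the series, which took no part in the difference, give the same quantities in numbers 1 to 5 and 16 to 20. The spread of these arrays entered the common fit, so probe sets chosen by a call in it are favoured in these runs too. In numbers 1 to 5, where the effect was called in 2.39% of all probe sets, it was called in the same direction as in numbers 6 to 10 in 29 of the 52 probe sets and in the opposite direction in 0. Among the 26 ended effects that were higher in numbers 6 to 10, 24 were called higher in numbers 1 to 5, among them Fos at 2.62, Ddit4 at 1.56, Slc2a1 at 1.46, Angpt2 at 1.41, Ak4 at 1.17 and Plat at 1.14. Of the 10 ended effects that were lower, 4 were called lower there, with Slc40a1 at -0.94, Slco1c1 at -0.58 and Atf7ip at -0.57 among them, while Tek at -0.33 (adjusted p = 0.107), Haus5 at -0.50 (0.0549) and Smim20 at -0.10 (0.553) were not. Of the 27 reversed probe sets, 10 were called in numbers 1 to 5 in the direction of numbers 6 to 10, those of Ak4, Jmjd6, Errfi1, Narf and Atf7ip included. Apln, in the reversed class, was 1.33 higher there. Of the 13 reversed probe sets that had not been called in numbers 6 to 10 or were called in both runs, only 1, that of Apln, was called in numbers 1 to 5. Polr2a at -0.14 and Top3a at -0.08 were not called there, and neither were Taf6 at -0.04 and Bbs9 at -0.11, which are in the ended class too.

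In numbers 16 to 20, limma called 0 of 18625 probe sets (0%), with 952 at an unadjusted p under 0.05. Of the 52, 4 had such a p there. The estimates for Fos, Angpt2, Apln and Slc2a1 were 0.27, 0.10, 0.13 and 0.06. The lower level of Apln in PC arrays was called in numbers 11 to 15 and in no other run, and its difference from numbers 16 to 20 was not tested.

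The difference was called in every one of the 20 fits without 1 array for 26 of the 52 probe sets, 18 of which were higher. Those of named genes were Fos, Angpt2, Apln, Ak4, Jmjd6, Plat, Slc2a1, Errfi1, Vcl, Ddx17, Kdr, Cables1, Narf, Higd1a, Slco1c1, Taf6, Tek, Bbs9, Polr2a, Slc40a1 and Atf7ip. Of the 27 reversals, 8 were met in all 20 fits. All 52 differences kept their sign in every such fit, which their choice by a small p in the same arrays made likely in advance. When the 20 arrays of the comparison alone were fitted, 12 of the 31 named genes lost the call of the difference, 4 of them among those just listed: Narf (adjusted p = 0.0606), Higd1a (0.0532), Bbs9 (0.0601) and Polr2a (0.068). The other 8 were Mertk (0.0606), Sgk1 (0.102), Smim20 (0.0718), Mrpl46 (0.141), Eef1akmt1 (0.068), Rbm14 (0.0718), Haus5 (0.15) and Top3a (0.124). In that fit, the effects of Mt2A, Vwf, Prkce, Timp1 and Polr2a in numbers 11 to 15 were not called either (adjusted p of 0.0527 for Prkce, 0.157 for Vwf, Timp1 and Polr2a, and 0.2 for Mt2A). Smim20, Mrpl46, Eef1akmt1, Rbm14 and Top3a also lost the difference with median centring and with quantile normalization, and Mertk, Mrc1, Sgk1, Rbm14 and Top3a did with no filter on low values. With 32 added to the intensity, the differences of the dim genes Mertk, Haus5 and Top3a were 0.66, -0.57 and -0.68.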

How the data were processed

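The deposited values are a linear intensity for every probe set on every array, made with software that the labels do not state. No detection calls were used. Trimmed by 2% at either end, the deposited intensity averaged 150.04 to 150.06 on the arrays, which shows scaling by the authors to one target. Of 31099 probe sets, 57 controls were left out, values under 16 were set to 16, and log2 was taken. A probe set was kept if its mean log2 value was at or above the 40th percentile (intensity 31.9), and 0.149% of the values kept lay at the floor. Genes were named from the platform annotation. Among kept probe sets, 14273 had 1 gene, 309 several and 4043 none, and the probe set with the highest mean stood for a gene.

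All 40 arrays entered limma 3.58.1 under R 4.3.3 (lmFit, then eBayes with trend) as 8 group means, without covariates or pairing by number. The contrasts were the effect in each run, their difference and average, and the run difference among PC and among Sham arrays. Tests were two-sided with Benjamini-Hochberg adjustment over 18625 probe sets. No sets of genes were tested, and lists are described by counts and medians.

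Named genes were the 15 largest called differences in each direction, every gene called in both runs or in numbers 11 to 15, 10 shared genes by average effect, up to 15 reversed genes, up to 4 called members of each list, and 30 genes whatever their result. The members, the 20 lists and this rule were chosen with earlier results of these data known. On data simulated with the real spread, the test of the difference recovered 29%, 81.5% and 99.5% of 200 changes of 0.5, 1 and 2, among 18625 probe sets. Promoters are RefSeq's on GRCr8, and 45 of the 53 named genes had an entry. Alternatives covered scaling, floor, offset, filter, the arrays fitted, trend, array weights, sex, the sample number as a block and single arrays left out.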

Additional observations from a re-analysis of the deposited data

Results flagged for a closer look

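The difference of effects was called in 31 of the 53 named genes. Some of the naming rules pick genes by this call, so the share is no result, and over all probe sets 52 of 18625 (0.279%) were called. With only the 20 arrays of the comparison, 12 of the 31 lost the call. On the log2 scale, the difference of effects was 2.04 in Fos, 2.01 in Angpt2, 1.58 in Apln, 1.17 in Ak4, 1.11 in Mertk, 0.90 in Mrc1, 0.82 in Jmjd6, 0.76 in Plat, 0.74 in Slc2a1 and 0.73 in Errfi1 and in Vcl. It was 0.62 in Ddx17, 0.58 in Kdr, 0.57 in Cables1, 0.52 in Ddit4, 0.50 in Sgk1, 0.49 in Narf and 0.40 in Higd1a. Below 0 it was -0.48 in Smim20, -0.49 in Mrpl46, -0.61 in Eef1akmt1, -0.64 in Slco1c1, -0.68 in Taf6, -0.70 in Rbm14, -0.73 in Tek, -0.74 in Bbs9, -0.76 in Polr2a, -0.87 in Slc40a1, -0.94 in Haus5, -0.98 in Atf7ip and -1.31 in Top3a.

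In arrays outside the comparison, 28 of the 36 probe sets whose effect ended were called in numbers 1 to 5 in the direction they had in numbers 6 to 10, against 2.39% of all probe sets called there. The 36 were chosen by calls in a fit that shares its spread with numbers 1 to 5, so that share is no like background. Of the 223 shared probe sets, 26 were called there in that way.

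Among 212 groups of 5 arrays, 1 array lay far from the other 4 by Dixon's criterion in 15, where chance gives about 1 in 20. High in their group were Fos on PC 12 at 5.66, Egr1 on PC 12 at 8.80, Cables1 on Sham 7 at 7.37, Fkbp5 on PC 7 at 8.01 and on PC 11 at 7.53, Angptl4 on PC 11 at 7.47, Ldha on PC 6 at 11.94 and Top3a on PC 9 at 5.59. Low in their group were Flt1 on Sham 14 at 5.19, Kdr on Sham 12 at 7.85, Pla1a on Sham 7 at 4.00, Prkce on PC 8 at 8.38 and on Sham 8 at 8.18, Smim20 on PC 13 at 7.50 and Haus5 on Sham 11 at 5.22. The sources of these values were not tested.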

How the results depend on the processing

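Over 53 named genes and 13 alternatives, 675 results kept direction and call in 623, lost the call in 43, gained it in 9 and turned in 0, and over the 20 fits without 1 array the 1060 results did so in 915, 137, 8 and 0. The called differences numbered 52 in the fit reported. They were 83 with median centring, 81 with array weights and 25 with only the 20 arrays, where fewer arrays estimate the spread. Of the calls under median centring, 89.2% of the differences were higher (67.3% in the fit reported), as were 83.5% in numbers 6 to 10 (49.4%) and 54.5% in numbers 11 to 15 (69.2%). Quantile normalization and median centring shared 43 and 44 of the 52 calls. They also kept all 52 signs, which says little for probe sets chosen by a called difference. In numbers 6 to 10, 256 were called with only the 20 arrays and 265 without PC 5 and PC 6. In numbers 11 to 15, 22 were called with quantile normalization, 22 with the 60th percentile filter, 6 with only the 20 arrays and 41 without PC 5 and PC 6. The average was called in 207 with only the 20 arrays. Among PC arrays 1056 were called with array weights, and among Sham arrays 138 with array weights, 34 with median centring, 29 without the mean trend and 19 with only the 20 arrays. Ended effects numbered 68 with median centring, 61 with array weights and 21 with only the 20 arrays, which also left 12 reversed and 135 shared. Leaving out 1 array gave 32 to 85 called differences, 217 to 584 calls in numbers 6 to 10, 3 to 20 in numbers 11 to 15, 233 to 539 for the average, 1027 to 1751 among PC and 12 to 69 among Sham arrays, 25 to 69 ended, 16 to 40 reversed and 128 to 291 shared. The cause of these shifts was not tested, also where an alternative removes arrays.

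PC and Sham samples share numbers, so the number was also fitted as a replicate block. Same-numbered arrays deviated together with correlations of 0.031 to 0.238, over 0.1 in 7 of 10 pairs. In 9 of 10 pairs, the correlation was highest with the own number. Sex transcripts also marked the PC and Sham array of every shared number alike. Both are hints from the data that numbers pair the samples, and the labels do not state a pairing. With the block, 71 differences, 677 effects in numbers 6 to 10, 34 in numbers 11 to 15 and 720 averages were called, with 55 ended, 34 reversed and 389 shared. Among named genes, the difference gained the call in Egr1 (adjusted p = 3.41e-05) and Vegfa (0.0229) and lost it in Haus5 (0.0531), Rbm14 (0.056) and Eef1akmt1 (0.0571), and in numbers 11 to 15 the effect of Vegfa gained it (0.0382) and that of Vwf lost it (0.0591). The run differences within PC and within Sham arrays cannot be fitted with this block. Signal over background limits the dim genes: Top3a, Pla1a, Serpinb6b, Angpt2 in Sham arrays and Fos in PC 11 to 15 lie near the floor of 4.00. The size of a change is uncertain there and depends on the processing. The difference of Top3a was -1.31 in the fit reported and -0.68 with 32 added to the intensity.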
